A study of Homo sapiens with 9 samples.

Results

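The CSF1 receptor axis was followed through 4 genes in 786-O cells: the receptor CSF1R, its ligands CSF1 and IL34, and LAPTM5. These were 4 of 38021 genes in the deposited table. The 4 genes were chosen by name, as genes best known from myeloid cells, with their measured values in these libraries already known. Their differences between groups are therefore a description and carry no test. 786-O is an established line from a human clear cell renal cell carcinoma, and it has no functional VHL, the protein that marks HIF2α for destruction. The cells were infected with lentivirus carrying a PLKO.1 short hairpin and selected and kept in puromycin. The hairpin was a control in shControl (labelled WT), was aimed at ARNT in shARNT, and was aimed at BMAL1 in shBMAL1. There were 3 libraries in each group, which the labels call biological replicates, and 1 cell line was used throughout.

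CSF1R is a receptor tyrosine kinase of the same class as KIT, FLT3 and the PDGF receptors, and it drives the survival and differentiation of monocytes and macrophages. CSF1 and IL34 are separate ligands that bind it without resembling each other in sequence, and tumor cells commonly secrete CSF1. LAPTM5 is a lysosomal membrane protein of blood cells that reaches lysosomes with the ubiquitin ligase NEDD4 and GGA adaptors. ARNT and BMAL1 are related bHLH-PAS proteins, and each can pair with HIF2α.

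The upstream sequences of CSF1R and LAPTM5 are shown because E-boxes and hypoxia response elements are the sites that BMAL1 and HIF dimers are known to bind. Those of the ligands CSF1 and IL34 are not shown here. RefSeq holds 2 CSF1R starts and 1 LAPTM5 start on GRCh38.p14, and each line gives the 250 bases before a start, read on the minus strand. They lie at chr5:150113366-150113615 for the distal CSF1R start, at chr5:150086555-150086804 for the proximal CSF1R start and at chr1:30757775-30758024 for LAPTM5. Capitals mark matches on either strand to CACGTG, the E-box, or to ACGTG or GCGTG, the core of the hypoxia response element. They also mark GAGGAA, a form of the PU.1 site.
CSF1R distal: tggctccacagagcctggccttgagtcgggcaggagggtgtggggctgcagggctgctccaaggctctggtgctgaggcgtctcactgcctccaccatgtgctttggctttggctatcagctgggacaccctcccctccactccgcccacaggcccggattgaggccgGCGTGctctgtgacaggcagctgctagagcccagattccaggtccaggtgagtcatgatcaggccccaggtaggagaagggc
CSF1R proximal: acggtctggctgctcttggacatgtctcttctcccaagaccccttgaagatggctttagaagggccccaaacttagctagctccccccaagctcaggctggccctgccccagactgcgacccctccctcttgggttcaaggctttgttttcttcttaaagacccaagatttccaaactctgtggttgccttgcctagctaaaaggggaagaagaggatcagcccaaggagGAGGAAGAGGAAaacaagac
LAPTM5: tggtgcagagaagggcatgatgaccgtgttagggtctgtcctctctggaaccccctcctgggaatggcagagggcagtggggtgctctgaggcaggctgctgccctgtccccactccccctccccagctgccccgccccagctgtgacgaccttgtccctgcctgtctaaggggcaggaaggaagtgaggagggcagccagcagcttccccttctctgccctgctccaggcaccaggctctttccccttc
The distal CSF1R sequence held GCGTG once, with its first base 82 bases before the start. The proximal CSF1R sequence held GAGGAA in 2 adjoining copies, at 20 and 14 bases before the start. No searched letters were found in the LAPTM5 window, but the shorter GGAA, which it holds, was not searched. Every CACGTG also holds ACGTG. Among 35116 RefSeq promoters of the same length, 6.34% held CACGTG, 18.5% held ACGTG, 32.2% held GCGTG and 23.6% held GAGGAA, so such matches are common. The counts are per gene and do not say which CSF1R start was used.

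Each library held 33793043 to 35444731 reads. Knockdown was checked first. ARNT fell from 2352 ± 184 normalised read counts in shControl to 1225 ± 23.2 in shARNT (SD, n = 3 libraries; log2 fold change -0.94, DESeq2 adjusted p = 8.81e-35). ARNTL, the symbol for BMAL1 in the table, fell from 761 ± 32.0 to 326 ± 29.2 in shBMAL1 (log2 fold change -1.23, DESeq2 adjusted p = 2.51e-25). ARNT was also lower in shBMAL1 (-0.23, DESeq2 adjusted p = 0.0187), a call lost without shControl replicate 2 (adjusted p = 0.162) or shBMAL1 replicate 2 (0.109). ARNTL was likewise lower in shARNT (-0.26, DESeq2 adjusted p = 0.0294), a call lost without shControl replicate 2 (adjusted p = 0.15) or shARNT replicate 3 (0.220). EPAS1, which encodes HIF2α, had a log2 fold change of -0.23 in shARNT (DESeq2 adjusted p = 0.000563) and of -0.06 in shBMAL1 (adjusted p = 0.546). Mitochondrial genes took 5.46% to 7.14% of reads in shControl, 7.59% to 8.74% in shARNT and 8.71% to 9.66% in shBMAL1, and the part of this shift in the results was not tested.

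CSF1R lies on the minus strand at chr5:149432854-149492935 (GRCh37, GENCODE). Its normalised read counts were 414.6, 439.8 and 466.0 in the shControl libraries, 293.3, 264.2 and 308.1 in the shARNT libraries, and 261.1, 224.7 and 231.1 in the shBMAL1 libraries. The control libraries were the highest, the shBMAL1 libraries the lowest, and no groups overlapped, although the lowest shARNT library lay just above the highest shBMAL1 library. The means were 440 ± 25.7, 289 ± 22.4 and 239 ± 19.4 (SD, n = 3). Against shControl, the mean fell by 34.4% in shARNT (log2 fold change -0.61, SE 0.12) and fell by 45.7% in shBMAL1 (-0.88, SE 0.13). Between the knockdowns the log2 fold change was -0.27 (SE 0.15), lower in shBMAL1. With each library left out in turn, the estimates ran from -0.65 to -0.55, from -0.95 to -0.84 and from -0.34 to -0.23.

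The receptor gene sits close to its neighbours. HMGXB3 ends 148 bases from the CSF1R 3′ end on the opposite strand, and PDGFRB, the PDGF receptor β gene, lies 466 bases upstream on the same strand. The CSF1R locus also overlaps the pseudogene RPL7P1 and a Y RNA gene on the plus strand. The strand setting of the counting is not given in the sources used here, so reads of such partners cannot be told apart. HMGXB3 had a log2 fold change of -0.09 in shARNT (DESeq2 adjusted p = 0.188) and of -0.41 in shBMAL1 (adjusted p = 2.07e-09). PDGFRB, with 11 to 36 reads per library, had a log2 fold change of -0.56 in shARNT (DESeq2 adjusted p = 0.465) and of 0.15 in shBMAL1 (adjusted p = 0.866). TIGD6 passed no test, and CDX1 was at 0 reads. The part of these neighbours in the CSF1R values was not tested.

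CSF1, the ligand, lies on the plus strand at chr1:110452864-110473614 (GRCh37) and overlaps no annotated gene. Its normalised read counts were 6027, 5917 and 6102 in shControl, 6674, 6860 and 6801 in shARNT, and 4542, 4309 and 4174 in shBMAL1. Here the order of the groups differed from that of the receptor, since every shARNT library was above every control library and every shBMAL1 library was below. The means were 6015 ± 93.0, 6778 ± 95.5 and 4342 ± 186 (SD, n = 3). The log2 fold change was 0.18 (SE 0.05) in shARNT and -0.47 (SE 0.06) in shBMAL1, and between the knockdowns it was -0.64 (SE 0.06). Without 1 library these ran from 0.16 to 0.19, from -0.51 to -0.44 and from -0.68 to -0.62. Of its neighbours, AHCYL1 rose in both knockdowns (log2 fold change 0.31 with DESeq2 adjusted p = 6.58e-09 in shARNT, and 0.19 with adjusted p = 0.00813 in shBMAL1). GSTM5 and EPS8L3 were too low to be tested.

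IL34, the other ligand, lies on the plus strand at chr16:70613798-70694585 (GRCh37) and was close to undetected. It had 0, 0 and 2 reads in the shControl libraries, 0 in each shARNT library, and 5, 3 and 0 reads in the shBMAL1 libraries. The groups overlapped at 0. Summed over libraries, the 8 reads of shBMAL1 against 2 of shControl gave a ratio of 4.05 per read total, with an exact conditional 95% interval of 0.808 to 39.1 that covers counting error only. No fold is given for shARNT, since a count of 0 allows up to 3 reads and shControl was at 2. Against shControl, a difference in IL34 was not detectable at this depth. Between the knockdowns IL34 did not enter the DESeq2 test. It could be tested there only through shBMAL1, which also had 1 library at 0, so no call is read from it. SF3B3 ends 2224 bases before IL34 and MTSS1L lies 521 bases past it on the opposite strand. SF3B3 passed neither test, and MTSS1L fell in shBMAL1 (log2 fold change -0.52, DESeq2 adjusted p = 8.32e-12). MTSS1L passed in shARNT (-0.16, DESeq2 adjusted p = 0.0344) but not without shControl replicate 3 or shARNT replicate 2 or 3 (adjusted p up to 0.225). Farther out, COG4 passed in shARNT (0.16, DESeq2 adjusted p = 0.0158) but not without shControl replicate 3 (0.117), and VAC14 passed there (0.18, adjusted p = 0.0176) but not without shControl replicate 1 or shARNT replicate 2 (up to 0.131).

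LAPTM5 lies on the minus strand at chr1:31205316-31230621 (GRCh37), where the annotation also has a lncRNA on the plus strand and MIR4420. Its normalised read counts were 161.0, 178.9 and 169.8 in shControl, 115.0, 147.3 and 106.3 in shARNT, and 88.4, 105.8 and 49.9 in shBMAL1. The order was that of the receptor and the groups did not overlap on this scale. However, shARNT replicate 3 (106.3) lay just above shBMAL1 replicate 2 (105.8). Per exon length and library size these libraries crossed (RPKM 0.954 and 0.963). The spread within each knockdown was wide, and shBMAL1 replicate 3 stood lowest. The means were 170 ± 8.97, 123 ± 21.6 and 81.4 ± 28.6 (SD, n = 3), from 51 to 179 reads per library. The log2 fold change was -0.46 (SE 0.19) in shARNT and -1.07 (SE 0.24) in shBMAL1, and it was -0.60 (SE 0.26) between the knockdowns. Without 1 library these ran from -0.61 to -0.37, from -1.30 to -0.81 and from -0.83 to -0.34, the last value being that without shBMAL1 replicate 3. Of the neighbouring genes, MATN1 passed no test against shControl, while PTPRU, which lies 1551990 bases away, fell in shARNT (-0.91, DESeq2 adjusted p = 2.49e-17) and in shBMAL1 (-0.60, adjusted p = 2.8e-07). SDC3 passed in shBMAL1 (0.24, DESeq2 adjusted p = 0.0268) but not without shControl replicate 1 or 2 or shBMAL1 replicate 3 (adjusted p up to 0.186).

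**Figure D1:**
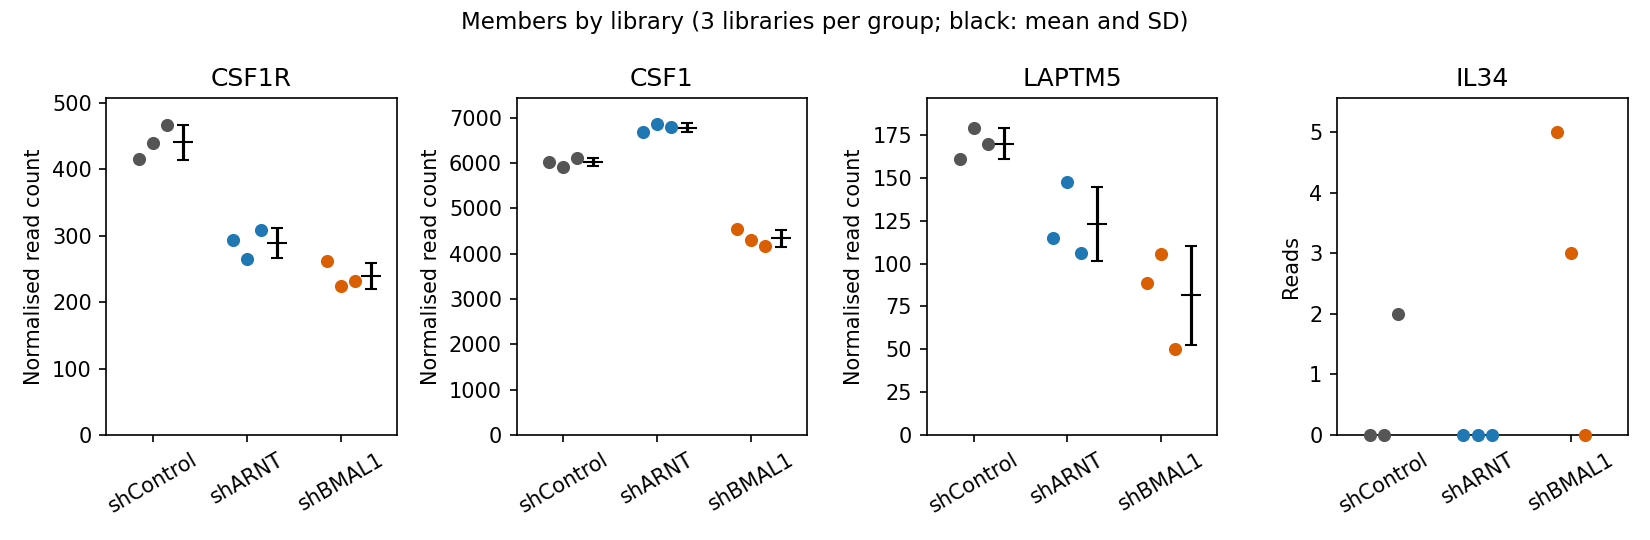
Each point is 1 library of shControl, shARNT or shBMAL1, with normalised read counts on the vertical axis for CSF1R, CSF1 and LAPTM5 and reads for IL34, and the black mark is the mean with its SD (n = 3). CSF1R and LAPTM5 step down from shControl to shARNT to shBMAL1, CSF1 is highest in shARNT, and IL34 has 5 reads at most.

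In shARNT against shControl, 3 of the 4 genes entered the test and 3 passed an adjusted p of 0.1, with CSF1R and LAPTM5 lower and CSF1 higher. Of all 15164 genes tested, 35.4% passed, 19.0% lower and 16.5% higher. In shBMAL1 against shControl, CSF1R, CSF1 and LAPTM5 passed, all lower, beside 36.8% of 19036 genes (19.4% lower and 17.4% higher). Between the knockdowns, CSF1 and LAPTM5 passed, both lower in shBMAL1, beside 35.3% of 18181 genes (18.0% lower and 17.3% higher). Nothing is read from these counts, since the genes were chosen with these values known. Leaving out 1 library kept CSF1R and CSF1 past the threshold against shControl every time. LAPTM5 in shARNT was no longer past it without any 1 of the shControl libraries or without shARNT replicate 1 or 3, with estimates of -0.50 to -0.37. Between the knockdowns, LAPTM5 was no longer past it without shARNT replicate 1 or 2 or shBMAL1 replicate 1 or 3, with estimates of -0.66 to -0.34. The comparisons of shARNT and of shBMAL1 share the control libraries.

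**Figure D2:**
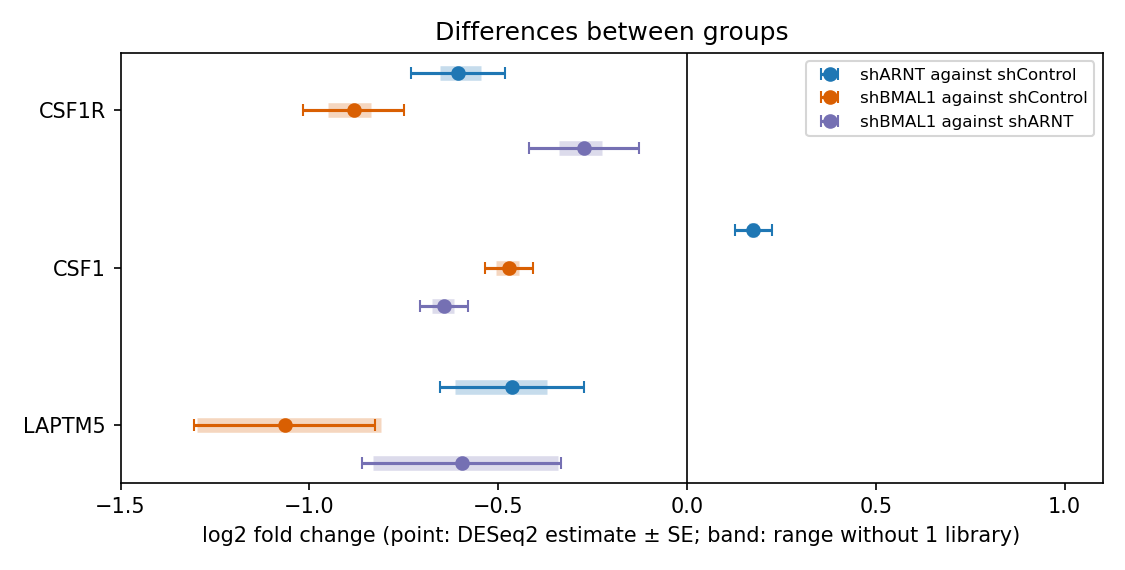
Points are DESeq2 log2 fold changes on the horizontal axis with SE bars, 1 row per gene and 1 color per comparison, and the pale bands span the estimates with each library left out in turn. The CSF1 estimate is 0.18 in shARNT and -0.47 in shBMAL1, and the bands of LAPTM5 are the widest.

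Per length, the ligand was far above its receptor. On the RPKM scale, which divides reads by exon length and library size, the mean level of CSF1 was 32.7 in shControl, 37.5 in shARNT and 24.2 in shBMAL1. The mean RPKM of CSF1R was 2.43, 1.62 and 1.35, and that of LAPTM5 was 1.5, 1.1 and 0.735, in the same order of groups. Among 13619 genes with a mean of at least 10 reads, control RPKM placed CSF1 at rank 1230, CSF1R at rank 8479 and LAPTM5 at rank 9662. The ratio of CSF1 to CSF1R RPKM was 14.3, 13.2 and 12.9 in the shControl libraries, 22.4, 25.5 and 21.7 in the shARNT libraries, and 17.1, 18.9 and 17.8 in the shBMAL1 libraries. Ligand relative to receptor was thus highest in shARNT and lowest in shControl, with no overlap between groups.

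Other cell types were checked with marker genes. Of 10 defining myeloid markers, 7 had at most 3 reads in every library, and TYROBP, C1QA, C1QB and C1QC were at 0. PTPRC, the pan-leukocyte marker CD45, and SPI1, which encodes PU.1, reached 3 reads in 1 library each, and AIF1 reached 1. CD14 had 7 to 14 reads, ITGAM 5 to 18 and FCER1G 3 to 14. The summed RPKM of the defining markers was 0.491 to 0.682 in shControl, 0.345 to 0.577 in shARNT and 0.296 to 0.382 in shBMAL1, which is below the level of CSF1R alone in every group. This sum was lower in shBMAL1 than in every control library, as CSF1R and LAPTM5 were, and its part in their values was not tested. Most of the fall was in FCER1G (mean RPKM 0.367 in shControl, 0.226 in shARNT and 0.121 in shBMAL1), while CD14 went from 0.168 to 0.191 and 0.194. Of the full list of 29 myeloid markers, 18 had at most 3 reads in every library and 8 were at 0. Its summed RPKM, 98.7 to 109 in shControl, 94.4 to 103 in shARNT and 77.3 to 93.5 in shBMAL1, came mostly from the lysosomal protein gene CD68 (mean RPKM 90.7). CTSS (242 to 603 reads, mean RPKM 1.80), CD74 (126 to 279 reads, 1.37) and MSR1 (161 to 299 reads, 0.826) were at levels per length near those of CSF1R and LAPTM5. Within the list the genes moved in different directions, since the RPKM of CTSS went from 2.39 in shControl to 1.11 in shBMAL1 and that of MSR1 from 0.608 to 1.05. Lymphoid markers summed to 0.336 to 0.692 RPKM in shControl, 0.0727 to 0.351 in shARNT and 0.0533 to 0.221 in shBMAL1, with 6 of 10 at no more than 3 reads in every library. Of 6 endothelial markers, 3 had at most 3 reads in every library. By contrast, 14 of 15 kidney tubule and carcinoma markers exceeded 3 reads in at least 1 library, and the list had a median RPKM of 35.3. The list was uneven. PAX8, the renal lineage factor, was at 35.5 and VIM at 501, but PAX2 was at 2.99, MME at 2.94 and CA9 at 2.48. NDUFA4L2 (6 to 28 reads, mean RPKM 0.166) and CUBN (42 to 119 reads, 0.153) were near CD14 (0.184), and LRP2 had at most 2 reads. In these bulk libraries, fewer cells of a type and less RNA per cell cannot be told apart.

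**Figure D3:**
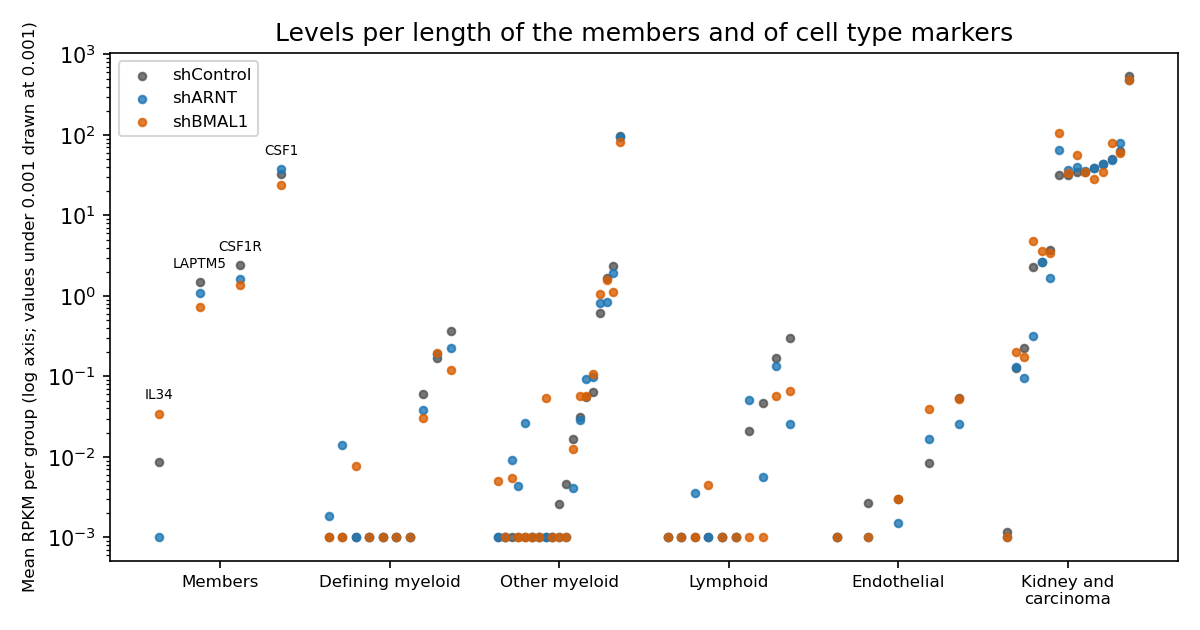
Mean RPKM per group on a log axis for the 4 genes and for the marker lists, each point 1 gene in 1 group, with values under 0.001 drawn at 0.001. CSF1R and LAPTM5 lie above all defining myeloid markers, most of which are at the bottom, and CSF1 lies among the kidney and carcinoma markers.

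The pathway around the receptor was described with 77 other genes in 6 lists. In shARNT, 62 were tested and 32 passed (19 lower, 13 higher), or 51.6% against the 35.4% of all genes, with a median log2 fold change of -0.03 beside 0.0028 for all genes. In shBMAL1, 68 were tested and 41 passed (28 lower, 13 higher), or 60.3% against 36.8%, with a median of -0.16 beside 0.015. Between the knockdowns 35 of 68 passed (25 lower and 10 higher in shBMAL1), or 51.5% against 35.3%, with a median of -0.06 beside 0.0094. The pathway genes and all genes were not matched for read number, and its part in these shares was not tested. By list, the share of tested genes that passed in shARNT ran from 28.6% in the related receptors to 80% in the shedding genes, apart from the list of other colony-stimulating factors with 1 gene tested, and list medians ran from -0.24 to 0.10. In shBMAL1 the shares ran from 50% to 80%, and the list medians from -0.36 to 0.15 apart from -1.77 over the 3 other colony-stimulating factor genes tested. With each library left out in turn, 17 of the 32, 29 of the 41 and 26 of the 35 calls held in all 6 fits.

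Of 33 receptor signalling genes, 31 were tested, and 8 fell and 5 rose in shARNT while 11 fell and 7 rose in shBMAL1. PIK3CD, the PI3K δ catalytic subunit, fell in both, from 2226 ± 126 normalised read counts to 1282 ± 32.5 in shARNT (log2 fold change -0.79, DESeq2 adjusted p = 1.5e-27) and 1340 ± 71.4 in shBMAL1 (-0.73, adjusted p = 4.97e-18). CBL, the ubiquitin ligase that sends the activated receptor for degradation, also fell in shARNT (log2 fold change -0.32, DESeq2 adjusted p = 0.00109) and in shBMAL1 (-0.75, adjusted p = 3.31e-12). Its relative CBLB rose in both (0.44 with DESeq2 adjusted p = 3.12e-07, and 0.37 with adjusted p = 0.000213). FYN, a SRC family kinase, rose in shBMAL1 from 280 ± 24.2 to 615 ± 38.1 (log2 fold change 1.14, DESeq2 adjusted p = 7.5e-19), and its estimate in shARNT was -0.19 (adjusted p = 0.326). FYN differed between the knockdowns by 1.33 (DESeq2 adjusted p = 3.72e-26). GAB2, a docking protein, fell in shBMAL1 (-1.03, DESeq2 adjusted p = 1.69e-08), and SOS2, a RAS exchange factor, rose there (0.38, adjusted p = 2.06e-05).

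Some signalling calls did not hold in every fit that left out 1 library, each with 5 libraries in place of 6, though their estimates kept their sign. SOCS3, a feedback inhibitor of cytokine signals, passed in shARNT (0.40, DESeq2 adjusted p = 0.0697) but not without shControl replicate 1 (0.302) or 2 (0.198) or shARNT replicate 1 (0.317) or 3 (0.166). STAT5A passed in shBMAL1 (-1.08, DESeq2 adjusted p = 0.0222) but not without shControl replicate 3 (0.189) or shBMAL1 replicate 1 (0.131) or 2 (0.117). INPP5D, which encodes the phosphatase SHIP1 and was singled out after its values were seen, passed in shBMAL1 with 27 to 33 reads (1.23, DESeq2 adjusted p = 0.0325). It did not pass without shControl replicate 1 or 2 or shBMAL1 replicate 2 or 3 (adjusted p up to 0.131).

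Among the 6 genes for ligand shedding and other IL34 receptors, 2 fell and 2 rose in shARNT, and 3 fell and 1 rose in shBMAL1. RHBDF2, the iRhom that escorts the sheddase ADAM17, fell from 8377 ± 329 normalised read counts to 5024 ± 76.1 in shARNT (log2 fold change -0.73, DESeq2 adjusted p = 2.34e-43) and 5075 ± 355 in shBMAL1 (-0.73, adjusted p = 2.03e-23). RHBDF1 rose in shARNT (0.21, DESeq2 adjusted p = 0.00893) and had an estimate of -0.09 in shBMAL1 (adjusted p = 0.543). SDC1, the syndecan that binds IL34, fell in shBMAL1 (-0.50, DESeq2 adjusted p = 1.56e-11). In shARNT the SDC1 estimate of -0.16 (DESeq2 adjusted p = 0.0496) did not pass without shControl replicate 3 (0.232) or shARNT replicate 1 (0.126) or 3 (0.294). PTPRZ1, another IL34 receptor, was at 0 reads throughout.

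ADAM17 itself, which cleaves membrane-bound CSF1, differed between the knockdowns by -0.30, lower in shBMAL1 (DESeq2 adjusted p = 8.54e-05). Against shControl its estimates were 0.15 in shARNT (DESeq2 adjusted p = 0.0325) and -0.16 in shBMAL1 (adjusted p = 0.0636). The first did not pass without shControl replicate 1 (0.126) or shARNT replicate 3 (0.187), and the second passed in just 1 of 6 such fits, with adjusted p of 0.125 to 0.210 without any shControl library or without shBMAL1 replicate 2 or 3. ADAM10 had an estimate of 0.19 in shBMAL1 (DESeq2 adjusted p = 0.0180), which did not pass without shControl replicate 3 (0.144).

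Of 10 related receptor tyrosine kinases and ligands, 1 fell and 1 rose of 7 tested in shARNT, and 3 fell and 3 rose of 9 in shBMAL1. PDGFB, a PDGF receptor ligand, fell from 562 ± 32.6 normalised read counts to 145 ± 10.5 in shARNT (log2 fold change -1.95, DESeq2 adjusted p = 5.87e-47) and 358 ± 44 in shBMAL1 (-0.65, adjusted p = 1.68e-06). KITLG, the KIT ligand, rose from 389 ± 37.1 to 738 ± 98.7 in shARNT (0.93, DESeq2 adjusted p = 2.49e-13). In shBMAL1 the KITLG estimate of 0.35 (DESeq2 adjusted p = 0.0233) did not pass without shControl replicate 1 (0.118) or 3 (0.130) or shBMAL1 replicate 2 (0.108) or 3 (0.132). FLT3LG, the FLT3 ligand, fell (-0.77, DESeq2 adjusted p = 0.00984) and PDGFC rose (0.37, adjusted p = 4.5e-06) in shBMAL1. PDGFRA, singled out after its values were seen, rose in shBMAL1 from 2 to 5 reads per control library to 27 to 46 (3.18, DESeq2 adjusted p = 2.04e-06).

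Among 7 other colony-stimulating factors and receptors, CSF2, which encodes GM-CSF, fell in both knockdowns. It went from 102 ± 25.7 normalised read counts to 19.99 ± 4.88 in shARNT (log2 fold change -2.34, DESeq2 adjusted p = 4.01e-11) and 29.9 ± 8.09 in shBMAL1 (-1.77, adjusted p = 1.92e-07). CSF2RB, the shared β chain of the GM-CSF and IL-3 receptors and also singled out after its values were seen, had 10 to 16 reads in shControl and 2 to 3 in shBMAL1 (-2.53, DESeq2 adjusted p = 0.0141). CSF3, CSF3R, IL3 and CSF2RA were at 0 reads in every library.

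Of 11 transcription factors that act on CSF1R in myeloid cells, 5 fell and 1 rose in each knockdown, of 8 tested in shARNT and 10 in shBMAL1. SPI1, the principal one, was at 0 reads in all but 1 library. ETS1 fell from 2833 ± 192 normalised read counts to 2201 ± 71.1 in shARNT (log2 fold change -0.36, DESeq2 adjusted p = 9.58e-07) and 1701 ± 104 in shBMAL1 (-0.74, adjusted p = 3.36e-18). JUN, an AP-1 subunit, fell in both (-0.64 with DESeq2 adjusted p = 2.83e-10, and -0.66 with adjusted p = 2.04e-09). CEBPB rose in shARNT (0.49, DESeq2 adjusted p = 0.00104), and its log2 difference between the knockdowns was -0.95, with the lower level in shBMAL1 (adjusted p = 3.62e-14). Against shControl the CEBPB estimate in shBMAL1 was -0.46 (DESeq2 adjusted p = 0.0106), or -0.30 (adjusted p = 0.180) without shControl replicate 3. EGR2 rose in shBMAL1 from 83.4 ± 23.0 to 209 ± 33.2 (1.32, DESeq2 adjusted p = 2.66e-08). Its estimate in shARNT was -0.74 (DESeq2 adjusted p = 0.0453) and did not pass without shControl replicate 2 (0.324) or shARNT replicate 1 (0.125) or 3 (0.220).

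The 10 relatives and sorting partners of LAPTM5 were all tested, and 2 fell and 4 rose in shARNT while 4 fell and 1 rose in shBMAL1. NEDD4, the ubiquitin ligase that binds LAPTM5, fell in shARNT (log2 fold change -0.36, DESeq2 adjusted p = 6.05e-07). Its estimate in shBMAL1 was -0.22 (DESeq2 adjusted p = 0.0260) and did not pass without shControl replicate 1 (0.171) or shBMAL1 replicate 1 (0.124). ITCH, a ligase of the NEDD4 family, fell in shBMAL1 (-0.37, DESeq2 adjusted p = 8.03e-07), while its shARNT estimate of -0.16 (adjusted p = 0.0176) did not pass without shControl replicate 1 (0.157). The adaptor gene GGA1 fell in shBMAL1 (-0.25, DESeq2 adjusted p = 0.00454). LAPTM4A, a widely expressed relative, rose in shARNT (0.23, DESeq2 adjusted p = 0.00265). LAPTM4B passed in shARNT (0.19, DESeq2 adjusted p = 0.0134) but not without shControl replicate 2 (0.123) or shARNT replicate 3 (0.142). GGA2 passed in shARNT (0.18, DESeq2 adjusted p = 0.0198) but not without shControl replicate 2 (0.124) or shARNT replicate 1 (0.124) or 2 (0.113), and in shBMAL1 (0.19, adjusted p = 0.0411) but not without shControl replicate 2 (0.189) or 3 (0.122) or shBMAL1 replicate 1 (0.184).

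**Figure D4:**
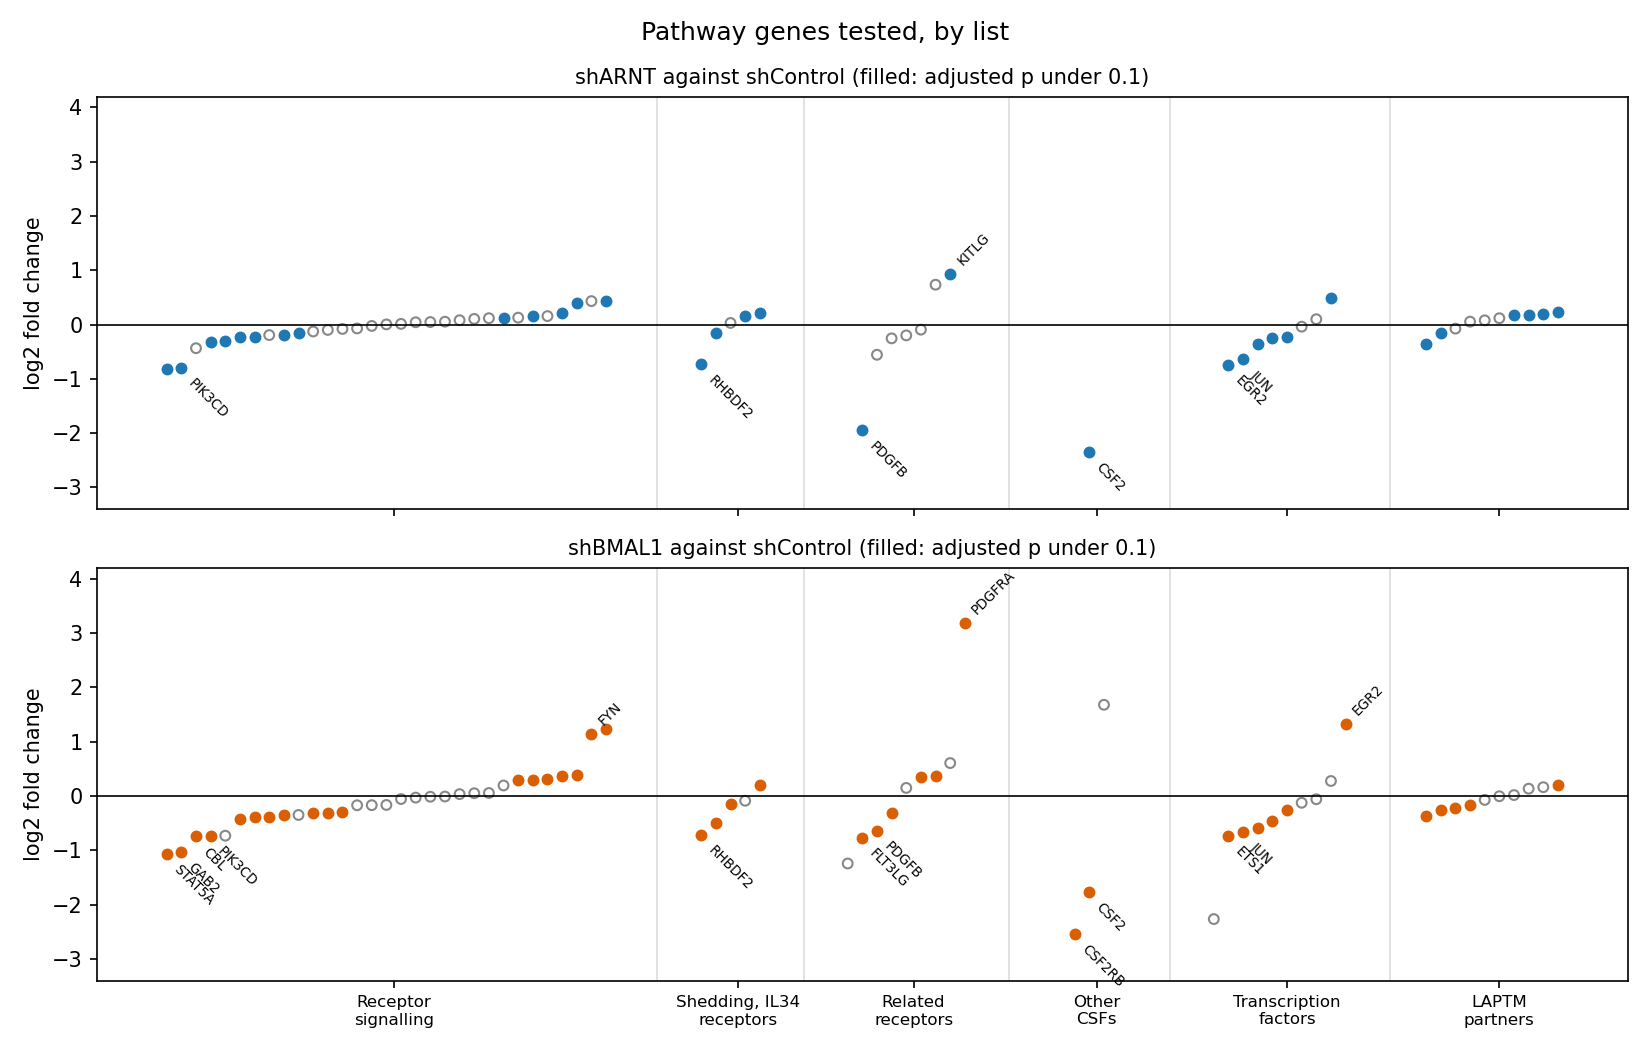
Each point is 1 of the tested pathway genes, ordered by log2 fold change (vertical axis) within its list, for shARNT against shControl above and shBMAL1 against shControl below, and filled points have an adjusted p under 0.1. CSF2 and PDGFB lie lowest among the filled points in shARNT, and PDGFRA, EGR2, INPP5D (1.23, unlabelled) and FYN lie highest among the filled points in shBMAL1.

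The genes whose pattern over the 9 libraries was most like each member were found by Pearson r on log2(normalised count + 1) among 12917 genes, as a description. For CSF1R these were KCTD13 (r = 0.989), TINAGL1 (0.987) and ZCCHC24 (0.987). KCTD13 went from 854 normalised read counts in shControl to 533 in shARNT and 432 in shBMAL1. For CSF1 they were SLC35G1 (0.994), STXBP5-AS1 (0.993), an antisense gene whose reads may be those of its partner, and NPC1 (0.993), the lysosomal cholesterol transporter. NPC1 was at 20093 in shControl, 22780 in shARNT and 13330 in shBMAL1. For LAPTM5 they were FLT3LG (0.960), VPS13D (0.958) and HAS2 (0.953). The libraries fall in 3 groups, so the 9 points behind each r are not independent.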

How the data were processed

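The values were estimated counts deposited by the authors, as total reads per gene. The study's methods name SeqMan NGen alignment to GRCh37 and ArrayStar counting, while the submitters' processing notes name STAR, DESeq2 and hg38. The annotation behind the counts is not given in the sources used here. A value of 0.009 stood for 0 (46.3% of cells) and was set to 0, fractional values (6.14% of the others) were rounded, and 53 rows were added to rows of the same name. Another 28 rows had names turned into dates and stayed in the fits unnamed.

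Groups came from the sample labels. Each comparison was fitted over all genes on its 6 libraries with DESeq2 1.42.0 in R 4.3.3 (median-of-ratios size factors, two-sided Wald test, independent filtering, Benjamini-Hochberg adjustment), and a gene was called at an adjusted p under 0.1. Normalised read counts divide reads by size factors of all 9 libraries. The fit was tested on simulated data. Alternatives were TMM size factors, edgeR 4.0.16, a filter of 10 counts in 3 libraries, 1 fit of 9 libraries, a replicate block, an adjusted p under 0.05, a 1.5-fold minimum and leaving out each library. RPKM used exon lengths of GENCODE genes on GRCh37 coordinates, and 23696 genes had a match there (94.6% of reads).

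The members and lists were chosen with earlier results of these data known, so no list is independent evidence. The pathway genes named were the 2 most lowered and 2 most raised called genes of each list in each knockdown, among genes with a mean of at least 50, plus SPI1, PDGFRB, PTPRZ1, SDC1 and ADAM17. Outside this rule, INPP5D, PDGFRA and CSF2RB were named after their values were seen. CSF3, CSF3R, IL3 and CSF2RA were named as genes at 0 reads. Libraries of 1 group differed by more than sampling noise (chi-square per degree of freedom 7.60 to 17.6). The labels call the replicates biological but do not say that they were separate cultures, so p values measure the spread between these libraries.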

Additional observations from a re-analysis of the deposited data

How the results depend on the processing

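The log2 fold changes of CSF1R, CSF1 and LAPTM5 kept their sign in every alternative fit. For IL34, with so few reads, no fitted fold is given under any setting. The number of pathway genes called was 32 in shARNT, 41 in shBMAL1 and 35 between the knockdowns. With a minimum change of 1.5-fold it was 8, 16 and 10, because most of these changes were smaller. With 1 library left out it ran from 23 to 27, from 34 to 39 and from 27 to 36. Same-numbered libraries did not deviate together (correlations of -0.116 to 0.102), and the main fits used no pairing. Differently numbered libraries were not compared, and whether the numbers mark a shared preparation was not tested. The replicate block gave 24, 38 and 31 calls, with CSF1R at -0.61, -0.88 and -0.27, CSF1 at 0.18, -0.47 and -0.64, and LAPTM5 at -0.47, -1.11 and -0.64. LAPTM5 in shARNT was not past the threshold under the block, in the fit of all 9 libraries or at an adjusted p under 0.05. Against shControl, ADAM17 lost its calls in shARNT and shBMAL1 under the block (DESeq2 adjusted p = 0.101 and 0.146). It also lost them under edgeR (edgeR adjusted p = 0.101 and 0.118). SOCS3 and EGR2 lost their calls in shARNT under the block (DESeq2 adjusted p = 0.178 and 0.122). Between the knockdowns, CSF1R also passed in the fit of all 9 libraries, edgeR added a call of IL34 that rests on 5, 3 and 0 reads against 0 in each shARNT library and is not counted here, and 1 of the 4 genes passed at an adjusted p under 0.05 (LAPTM5 lost). The 1.5-fold minimum left 1 of the 4 genes called in shARNT (CSF1 and LAPTM5 lost) and 2 in shBMAL1 (CSF1 lost). LAPTM5 had at most 179 reads and IL34 at most 5 in a library, which limits what can be seen of both.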
